A study of Mus musculus with 4 samples.

Results

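AP-1 and immediate early genes are here 10 transcripts, many of which cells induce within minutes of a signal. Their levels were read in CD45+ leukocytes of control and glucocorticoid-treated 20967 melanomas. The members were fixed by name, with earlier results of these data known. They are Fos, Fosb, Fosl2, Jun, Junb, Jund, Egr1, Atf3, Ier2 and Nr4a1. All 10 were found among the 32285 genes of the expression table and all 10 passed the filter on low values in every comparison below. The 20967 line is a mouse melanoma line derived from a C57BL/6 background carrying Nras+LSL-G12D;Tyr::CreERT2+/o, in which an oncogenic Nras allele is switched on in melanocytes by a tamoxifen-inducible Cre under the tyrosinase promoter. Tumors of this 1 line were grown in wild-type C57BL/6 mice and treated on the skin with an emollient cream (control, 5 tumors) or with the potent glucocorticoid (GC) clobetasol propionate (GC, 5 tumors), and were collected 4 days after treatment. The age of the mice is not given in the labels. All tumors of both groups were digested with collagenase and DNase at 37°C before live CD45+ cells were sorted, so the levels below are those of digested and sorted cells. Each tumor carried its own hashtag, and the 5 tumors of a group shared 1 droplet channel, so treatment and channel cannot be told apart.

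AP-1 is a dimer of a Fos family protein (Fos, Fosb, Fosl2) with a Jun family protein (Jun, Junb, Jund), or of 2 Jun family proteins, that binds DNA through a basic leucine zipper. MAP kinases switch on Fos, Egr1 and Ier2 without new protein synthesis, and the same pathway phosphorylates Jun. Atf3 is a stress-induced partner of the Jun proteins, Egr1 is a zinc finger factor, and Nr4a1 is an orphan nuclear receptor induced by antigen receptor and growth factor signals. The ligand-bound glucocorticoid receptor is known both for binding its own DNA sites and for repressing AP-1, and enzymatic digestion of tissue is known to induce the same immediate early genes. Values of digestion stress genes and of GC-induced genes are therefore given beside the results, and their part in them was not tested.

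The control channel held 3803 cells and the GC channel 305, with 18 to 111 cells in each GC tumor against 347 to 1250 in each control tumor. Median depth was 7440 UMIs (unique molecular identifiers, which count captured RNA molecules) per cell in control and 9163 in GC tumors, and the channels shared 0 cell barcodes. Levels are given as UMIs per 10000, that is, a gene's share of each cell's UMIs times 10000, averaged over the cells of a tumor. In the 16 clusters named by the authors, the summed markers of TAMs (tumor-associated macrophages), neutrophils, eosinophils, Tregs, NK cells and γδ T cells were highest in the cluster of that name. The lead was small for TAM markers, at 68.1 in the TAM cluster against 64.1 in the highest cluster of another name. Monocytes 3 ranked 9 of 16 for monocyte markers. B cell markers were at 0 UMIs in the neutrophils of both groups, and all 5 melanoma markers were at 0 there.

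The proximal promoters are shown because 4 members fell together in neutrophils, and the letters let the upstream sequence of those 4 be read beside that of Fos, which did not pass the test there. The windows are from RefSeq on GRCm38.p6, read 5′ to 3′ on the strand of the gene and upstream of its annotated start, with every TGACG or its reverse complement CGTCA (the core of the cyclic AMP response element) in capitals. The Atf3 window overlaps 7 bases of a GENCODE exon and the other windows overlap 0. Each window was placed to hold a match, so a match in every printed window is not a result. Their distances differ, from 130 to 71 bases before the start for Junb and from 60 to 1 for Atf3. The Nr4a1 window leaves out its matches that begin at bases -233 and -213.
Nr4a1, chr15:101266766-101266825, plus strand: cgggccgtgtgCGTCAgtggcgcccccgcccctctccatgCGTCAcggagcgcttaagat
Fosb, chr7:19310076-19310135, minus strand: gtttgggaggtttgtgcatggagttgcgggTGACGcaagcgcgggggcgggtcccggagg
Junb, chr8:84978819-84978878, minus strand: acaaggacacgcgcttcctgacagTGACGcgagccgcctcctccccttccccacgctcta
Atf3, chr1:191183334-191183393, minus strand: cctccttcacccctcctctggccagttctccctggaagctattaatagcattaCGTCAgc
Fos, chr12:85473755-85473834, plus strand: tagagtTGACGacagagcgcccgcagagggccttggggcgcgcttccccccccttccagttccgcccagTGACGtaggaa

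On GRCm38, GENCODE places Nr4a1 at chr15:101254269-101274795, Fosb at chr7:19302696-19310051, Atf3 at chr1:191170296-191218039 and Fosl2 at chr5:32135801-32157842. Junb (chr8:84974484-84978718), Jund (chr8:70698949-70700616) and Ier2 (chr8:84661331-84662852) lie on 1 chromosome. Fos is at chr12:85473890-85477273, Jun at chr4:95049034-95052222 and Egr1 at chr18:34859823-34864984. Over the 250 bases before the start, searched on both strands, TGACG was found in Nr4a1, Fosb, Junb, Atf3 and Fos and not in Fosl2, Jun or Jund, while 17.8% of all 32851 promoters of the same length held it. The AP-1 site TGANTCA was in none of these 8 windows, against 6.75% of all promoters. The full site TGACGTCA, which contains TGACG, was in none, against 1.55%. AGAACA, 1 arm of the glucocorticoid receptor site, was in none, against 16.1%, and the CArG box of serum response factor was in none, against 1.47%. The promoter set held no entry for Egr1 or Ier2, so these members were not searched for any of the motifs. These are matches of letters and not sites, and a window without a match says nothing of the factor.

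In control tumors these transcripts took their largest share of a cell's UMIs in the granulocytes. A share is not an amount, and depth differed between clusters. Median depth was 873.5 UMIs in control eosinophils, 4220.5 in control neutrophils and 12883 in control TAMs. Amounts per cell were not compared. The summed level of the 10 members was 183 UMIs per 10000 in eosinophils and 152 in neutrophils, followed by 84.8 in Monocytes 2, and the ranges over tumors of these 3 clusters did not overlap. The order below them, from γδ T cells at 55.9 to the DC 1 cluster at 20.3, ran through neighbors whose ranges overlapped. The members did not share 1 order. Because the members were described across clusters that were made from these same cells, the levels are a description without a test.

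**Figure D1:**
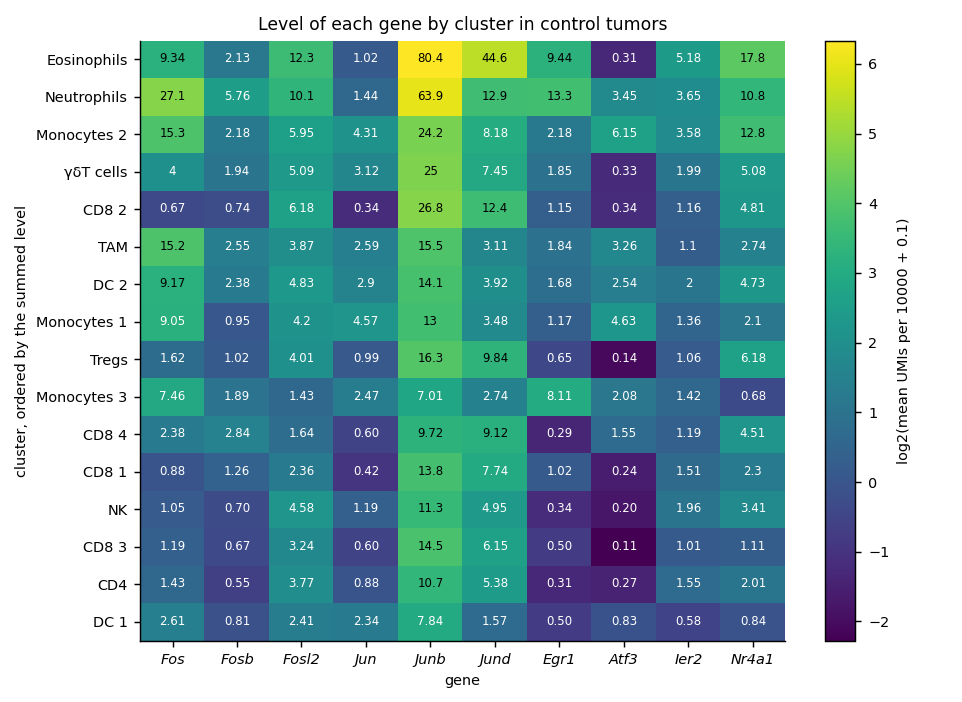
Mean level of each gene in each cluster of control tumors, with genes on the x axis and clusters on the y axis ordered by the summed level. Each cell prints the mean over control tumors with at least 5 cells of the cluster in UMIs per 10000, and color is log2 of that mean plus 0.1. Eosinophils and neutrophils hold the top rows, while Jun and Atf3 are highest in monocyte clusters.

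Among the Fos proteins, Fos itself was highest in neutrophils at 27.1 ± 1.96 UMIs per 10000 (SD, n = 5 tumors, range 25.3 to 30.1). It was next in Monocytes 2 at 15.3 ± 3.39 (12.9 to 21.0) and in TAMs at 15.2 ± 2.61. The neutrophil range did not overlap that of Monocytes 2, while the next 2 clusters overlapped each other. The CD8 2 cluster lay lowest, at 0.670 ± 0.349. Fosb followed neutrophils as well, at 5.76 ± 0.609. Fosl2 was highest in eosinophils at 12.3 ± 2.46 and in neutrophils at 10.1 (range 8.90 to 11.8), which overlapped, and the CD8 2 cluster at 6.18 ± 1.25 lay below both without overlap.

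Among the Jun proteins the orders differed from each other. Junb reached 80.4 ± 10.8 in eosinophils and 63.9 ± 2.97 in neutrophils, with overlapping ranges, and the CD8 2 cluster at 26.8 ± 7.85 lay clear of both. Jund was 44.6 ± 2.05 in eosinophils, with a range of 41.7 to 46.6 that no other cluster reached, and neutrophils followed at 12.9 ± 1.94. Jun was 1.02 in eosinophils and 1.44 in neutrophils and was highest in Monocytes 1 at 4.57 ± 0.601 (n = 4) and Monocytes 2 at 4.31 ± 0.411, and was 0.339 ± 0.0913 in CD8 2. Over the 13 clusters with at least 50 control cells, Jun and Jund were related by Pearson r = -0.41, while Junb and Egr1 gave r = 0.92. These are descriptions over clusters that share libraries and depth. Of the 45 pairs of members, 3 had an r below 0.

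The other immediate early factors split between granulocytes and monocytes. Egr1 was 13.3 ± 2.46 in neutrophils and 9.44 ± 1.36 in eosinophils. Nr4a1 was 17.8 ± 3.50 in eosinophils, 12.8 ± 2.12 in Monocytes 2 and 10.8 ± 0.815 in neutrophils, each overlapping its neighbor, and Tregs at 6.18 ± 1.59 lay below neutrophils without overlap. Ier2 was 5.18 ± 1.07 in eosinophils. Atf3 was 6.15 ± 1.35 in Monocytes 2, with at most 0.201 in any control tumor in CD8 3. After each cell was thinned to 2000 UMIs, the cluster with the largest share of cells holding a UMI was the cluster with the highest level for 8 of 10 members. The exceptions were Fosl2 and Nr4a1, for which the leading clusters became neutrophils and Monocytes 2. Thinning kept only 12 of 478 control eosinophils, whose median depth was 873.5 UMIs. For Junb, Jund and Ier2 the leading cluster after thinning was eosinophils, so for these members the match rests on those 12 deep cells.

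The genes outside the fixed lists whose cluster pattern was most like the summed level were Ddx3x (Pearson r = 0.93), Ccnl1 (0.93), Adipor1 (0.92), F5 (0.91) and Cdk2ap2 (0.90), over 13 clusters and among 2181 genes. The 25 other immediate early genes, summed, gave r = 0.85 and the 22 heat shock and dissociation stress genes gave r = 0.74. The 10 GC receptor and GC-induced genes gave r = 0.20.

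GC treatment was compared in neutrophils first, where 4 of 10 members fell and 0 rose. The background there was 4.83% of 4411 genes called in either direction and 2.74% called lower. edgeR called the same 4 (background 4.6%), as did DESeq2. The members were chosen with earlier results of these data known, so their count beside the background is not independent of the data. The test compared 5 control tumors with 2 GC tumors, replicates 2 and 3, which held 19 and 14 neutrophils. Median depth was 4220.5 UMIs per neutrophil in control and 5881.5 in GC tumors.

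Nr4a1, the orphan nuclear receptor, was 10.0, 10.5, 10.1, 12.0 and 11.2 UMIs per 10000 in neutrophils of control replicates 1 to 5. It was 2.37 and 2.32 in GC replicates 2 and 3, and 4.99 in GC replicate 5, which held 7 neutrophils and was not in the test. These GC values all lay below every control tumor, while GC replicates 1 and 4 held 2 neutrophils each and gave no value. The share of all genes whose groups separate in this way was not counted, here or below. The level fell by 2.15 on the log2 scale (standard error 0.23, adjusted p = 1.68e-05, limma). This exceeded the tumor-to-tumor spread and passed in all 15 alternatives.

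Junb, the Jun protein that opposes Jun at many targets, was 59.9, 62.7, 63.7, 65.3 and 67.9 in neutrophils of control tumors and 38.7 and 42.6 in the tested GC tumors, with 31.4 in GC replicate 5. These values did not overlap between groups. The change was -0.65 ± 0.14 on the log2 scale (SE, adjusted p = 0.00880, limma) and also passed in all 15 alternatives. Junb was thus 63.9 ± 2.97 (SD, n = 5) in control and 40.6 ± 2.82 (n = 2) in GC neutrophils.

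Fosb, a Fos family protein, fell from 5.76 ± 0.609 (n = 5) to 2.64 ± 0.389 (n = 2) UMIs per 10000 in neutrophils. Its GC values of 2.92 and 2.37, and 4.04 in GC replicate 5, were all below the lowest control tumor at 5.15. The log2 change was -1.10 ± 0.26 (SE, adjusted p = 0.0162, limma). Atf3, the stress-induced partner of Jun, fell from 3.45 ± 0.614 to 1.47 ± 0.482, with a log2 change of -1.20 ± 0.32 (adjusted p = 0.0340, limma). GC replicate 5 reached 5.60 for Atf3, above all control tumors. With tumors of at least 5 neutrophils, which add this tumor, 2 of 10 members passed, and the adjusted p was 0.0622 for Fosb and 0.472 for Atf3. Without GC replicate 3, which leaves 1 GC tumor, 2 members passed as well, and the adjusted p was 0.134 for Fosb and 0.275 for Atf3. The Atf3 call was also lost without control replicate 2, 3 or 4 (adjusted p from 0.0537 to 0.0808, limma).

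Fos did not follow them. It was 25.3, 27.8, 25.6, 30.1 and 26.5 in control neutrophils and 43.4 and 27.8 in the tested GC tumors, with 45.1 in GC replicate 5. GC replicates 2 and 5 thus lay above all control tumors and GC replicate 3 inside their range. The change of 0.36 ± 0.18 did not pass (95% interval -0.020 to 0.74, adjusted p = 0.300, limma). Jun, Jund, Egr1, Ier2 and Fosl2 lay between -0.17 and 0.12 on the log2 scale by limma (adjusted p from 0.805 to 0.990) and between -0.21 and 0.10 by edgeR (adjusted p from 0.687 to 0.951). Jun was 23.2 UMIs per 10000 in the 7 neutrophils of GC replicate 5, against 0.618 to 3.03 in all other tumors.

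Beside these changes, the 22 heat shock and dissociation stress genes gave 0 called of 15 tested in neutrophils, and their summed level was 149 to 213 in control and 161 to 200 in GC tumors. Most of that sum was Cxcl2 (94.0 in control and 95.6 in GC neutrophils), Mcl1 (29.4 and 25.4) and Nfkbia (28.0 and 26.1). It hides single genes that moved without passing. Examples are Hspa1b at -2.98 ± 0.91 (SE, adjusted p = 0.0856, limma) and Ubb at 0.75 ± 0.35 (adjusted p = 0.257, limma). Of 9 GC receptor and GC-induced genes tested, 4 rose. Summed TAM markers were 0.691 to 2.05 in control and 0.515 to 1.27 in GC neutrophils, with C1qb and C1qc at 0 UMIs in the latter. The 4 T cell markers summed to 0.0756 to 0.351 in control and 0.0641 to 0.351 in GC neutrophils, with Cd3d and Cd3e at 0 in the latter and Cd3g and Trac not. The part of other cell types in the changes was not tested.

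**Figure D2:**
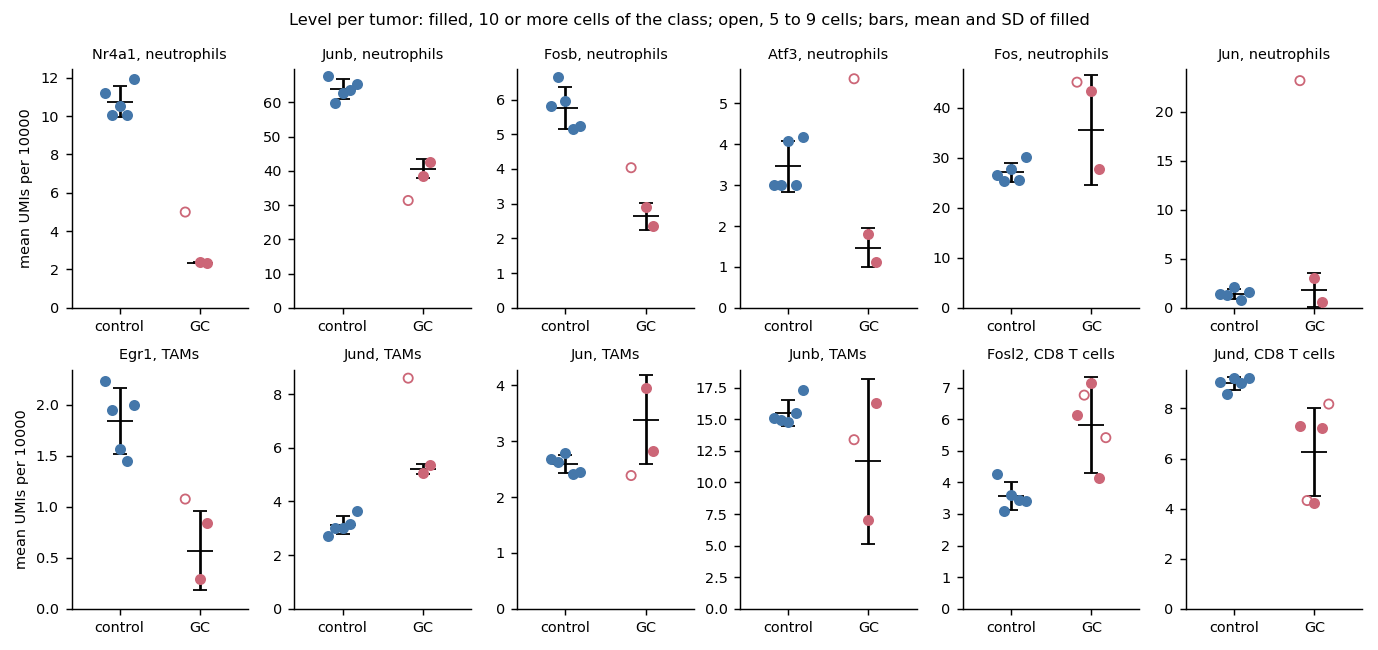
Level of selected genes in each tumor, in mean UMIs per 10000 on y axes that start at 0, for neutrophils (first 6 panels), TAMs (next 4) and CD8 T cells (last 2). Filled points held at least 10 cells of the class and entered the test, open points held 5 to 9 cells, and bars are the mean and SD of filled points. Nr4a1, Junb and Fosb of neutrophils, and Egr1 and Jund of TAMs, separate the groups at every point. So does Jund of CD8 T cells, which did not pass the test.

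In TAMs 2 of 10 members passed, 1 higher and 1 lower, against a background of 21.2% of 5988 genes called, 14.3% lower and 6.86% higher. edgeR also called 2 (background 11.2%). GC replicates 2 and 3 entered, with 17 and 16 TAMs. Egr1 was 1.95, 1.57, 1.45, 2.00 and 2.24 UMIs per 10000 in TAMs of control tumors, and 0.295 and 0.843 in the GC tumors, with 1.08 in the 7 TAMs of GC replicate 5. GC replicates 1 and 4 held 0 and 3 TAMs and gave no value. None of the GC values given reached a control value. The change was -1.65 ± 0.29 (SE, adjusted p = 0.00378, limma), past the threshold in all 15 alternatives. The count of 2 of 10 is close to the share of all genes called in TAMs.

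Jund, the Jun protein that is usually expressed without a stimulus, went the other way in TAMs. It was 2.99, 3.03, 3.17, 3.63 and 2.73 in control tumors and 5.07 and 5.34 in the GC tumors, with 8.59 in GC replicate 5. These values did not overlap between groups, and the change was 0.73 ± 0.13 (adjusted p = 0.00283, limma). With TAMs thinned to 2000 UMIs the change was 0.35 and the adjusted p was 0.276. Control TAMs had a median of 12883 UMIs and GC TAMs 17855. Fos, Jun, Junb, Nr4a1, Atf3, Fosb, Fosl2 and Ier2 did not pass in TAMs. Junb was 7.06 and 16.3 in the 2 tested GC tumors, and 13.4 in GC replicate 5, against 14.8 to 17.3 in controls. Without GC replicate 3, 4 members had an adjusted p under 0.05, with Junb at -1.12 and Jun at 0.59 added, but that fit holds 1 GC tumor, takes the spread from the control tumors and assumes that the lone tumor varies like them.

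In TAMs the stress genes Ubb, Cxcl2 and Nfkbia rose and 0 fell, of 18 tested, and the summed level of the list was 66.2 to 71.4 in control and 82.8 to 86.4 in GC TAMs. Within that sum Cxcl2 went from 7.56 to 17.6 and Nfkbia from 4.13 to 7.07. Hspa1b at -0.79 ± 0.35 and Hspa8 at 0.35 ± 0.14 did not pass (SE, adjusted p = 0.131 and 0.108, limma). Of 10 GC receptor and GC-induced genes 6 rose, among them Fkbp5 by 3.04 ± 0.19 and Tsc22d3 by 2.28 ± 0.21 (SE, limma). Summed neutrophil markers were 0.872 to 1.10 in control and 1.93 to 3.63 in GC TAMs, and summed endothelial markers 0.942 to 1.32 and 0.0339 to 0.355. The 4 T cell markers summed to 0.0871 to 0.203 in control and 0 to 0.0837 in GC TAMs, with Cd3e and Cd3g at 0 in the latter and Cd3d and Trac not. Their part in the Egr1 and Jund values was not tested.

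In CD8 T cells 1 of 10 members passed, higher after GC, against backgrounds of 5.02% of 6158 genes called in either direction and 2.27% higher. edgeR called 1 as well (background 6.17%). Fosl2, which partners Jun proteins in T cells, was 3.10, 3.59, 3.45, 3.42 and 4.27 in control tumors, and 7.14, 4.15 and 6.15 in GC replicates 2, 3 and 5. GC replicate 3 lay inside the control range, and GC replicates 1 and 4, with 7 and 9 CD8 T cells and outside the test, were at 6.76 and 5.42. The change was 0.66 ± 0.17 (SE, adjusted p = 0.0490, limma), and the call was lost in 11 of 19 alternatives, including when any 1 control tumor was left out. In cluster CD8 1 alone the change was 0.19 (adjusted p = 0.743) and in CD8 2 alone 0.35 (adjusted p = 0.447), so the 2 largest clusters taken apart did not pass. In control tumors Fosl2 was 2.36 in CD8 1, 6.18 in CD8 2 and 3.24 in CD8 3. The class mean was not standardised for the mix of these clusters, and the part of that mix was not tested. Over lymphoid cells, standardised for cluster, the Fosl2 change was 0.35 ± 0.20 (adjusted p = 0.400, limma).

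Jund in CD8 T cells was 8.56 to 9.20 in control tumors and 4.22, 7.22 and 7.29 in the tested GC tumors. GC replicates 1 and 4, outside the test, were at 4.32 and 8.17. No GC value reached a control value, and the change of -0.56 ± 0.16 did not pass (adjusted p = 0.0693, limma). It passed without any 1 of the 3 GC tumors (adjusted p from 0.0355 to 0.0486), but the change was then -0.31 without GC replicate 2, and edgeR gave -0.30 (adjusted p = 0.179). Fosb was 0.693 to 1.70 in control tumors and 0, 0.527 and 0.675 in the tested GC tumors. GC replicate 1 was at 0 and GC replicate 4 at 1.21, inside the control range. The Fosb change of -1.63 ± 0.55 did not pass (adjusted p = 0.118, limma). It was -0.69 without GC replicate 2, -2.17 without GC replicate 5, where it passed (adjusted p = 0.0441), and -0.84 by edgeR (adjusted p = 0.437). In CD8 T cells the stress genes moved in both directions, with 4 lower, among them Hspa5, Hspa1b and Mcl1, and 1 higher, Nfkbia, of 20 tested, and their summed level was 54.9 to 70.0 in control and 44.9 to 58.5 in GC tumors. Summed TAM markers were 0.644 to 1.09 in control and 0.116 to 0.266 in GC CD8 T cells, and monocyte markers 11.7 to 17.1 and 4.56 to 5.11. Their part in these values was not tested.

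**Figure D3:**
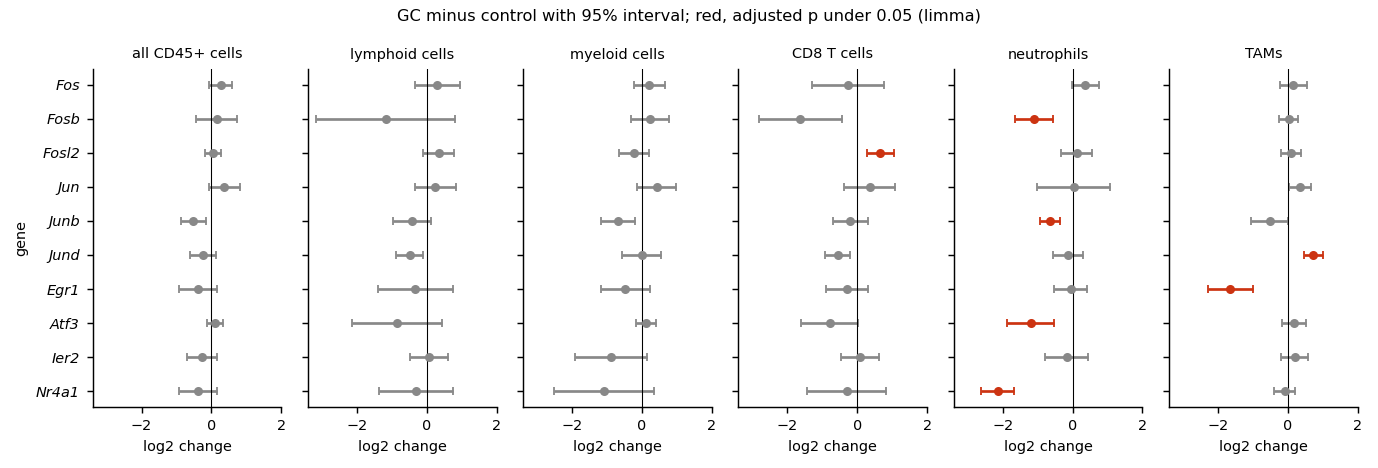
Change of each gene after GC, as the log2 difference from control on the x axis with its 95% interval, in 6 comparisons. Red points passed an adjusted p of 0.05 by limma. The 4 red points of neutrophils lie left of 0, TAMs hold Egr1 on the left and Jund on the right, and the first 3 panels hold none.

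The change of Nr4a1 was larger in neutrophils than in TAMs. This difference was tested within tumors that held at least 10 cells of both classes (5 control and 2 GC), and 1 of 10 members passed against a background of 0.283% of 3886 genes. For Nr4a1 the difference was -2.05 ± 0.29 on the log2 scale (SE, adjusted p = 0.0259, limma), since the change in TAMs was -0.094 ± 0.14. The difference for Egr1 was 1.59 ± 0.41 (adjusted p = 0.115), for Jund -0.86 ± 0.30 (adjusted p = 0.205) and for Fosb -1.12 ± 0.32 (adjusted p = 0.137), and these did not pass. The comparison was chosen after the values were seen. Without any 1 control tumor the adjusted p for Nr4a1 was 0.0614 to 0.0936.

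Taken over all CD45+ cells and standardised for cell type, so that a tumor with more neutrophils does not score higher for that reason, 0 of 10 members passed (background 3.53% of 6512 genes). At an unadjusted p under 0.05, limma counted 1 member and 1483 of the 6512 genes, and edgeR 2 members and 1876 genes. The value compared was the ratio of observed UMIs to those expected from the control level of each cluster. Junb came nearest, with ratios of 1.02, 1.00, 1.02, 0.882 and 1.13 in control tumors and 0.542, 0.601, 0.712, 0.868 and 0.841 in GC tumors. Every GC tumor was below every control tumor. The change was -0.52 ± 0.16 (95% interval -0.88 to -0.16, adjusted p = 0.0914, limma). edgeR called Junb (adjusted p = 0.0132, background 14.5%), as did DESeq2 (adjusted p = 0.00218).

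The other members overlapped between groups on this scale. Fos ratios were 0.875 to 1.21 in control and 0.940 to 1.53 in GC tumors, and the change was 0.27 ± 0.15. Jun was 0.914 to 1.06 and 0.828 to 1.76, with a change of 0.37 ± 0.20. Nr4a1, which fell in neutrophils, was 0.876 to 1.22 and 0.470 to 1.23 over all cells. The median change of the 10 members was -0.093, as was that of all genes tested.

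**Figure D4:**
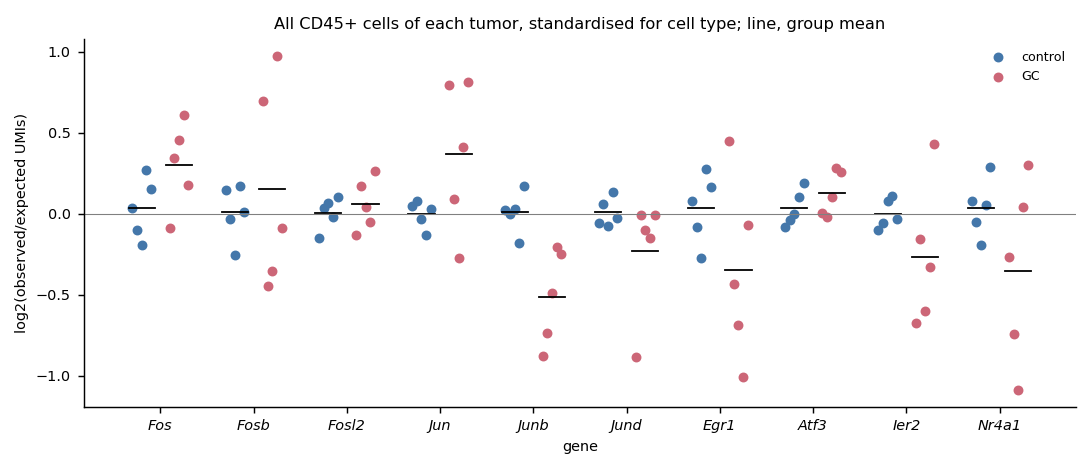
Log2 ratio of observed to expected UMIs on the y axis for each gene on the x axis, with 1 point per tumor and a line at the mean of the group. GC points of Junb lie below all control points, and those of the other genes overlap the control points or, for Jund, are drawn down by 1 tumor.

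Split by lineage, 0 of 10 members passed in lymphoid cells (background 1.13% of 6311 genes, 8.24% by edgeR) and 0 of 10 in myeloid cells (background 0.872% of 6078 genes, 10.2% by edgeR). edgeR called 1 in each, Jund in lymphoid cells (-0.45, adjusted p = 0.0134) and Junb in myeloid cells (-0.64, adjusted p = 0.0252). By limma Jund was -0.49 ± 0.18 (adjusted p = 0.215) in lymphoid cells and Junb -0.69 ± 0.22 (adjusted p = 0.129) in myeloid cells. At an unadjusted p under 0.05, limma counted 1 member and 1056 genes in lymphoid cells, and 1 member and 1130 genes in myeloid cells. The difference between lineages passed for 0 of 10 members and for 0% of 5027 genes, and at an unadjusted p under 0.05 for 0 members and 484 genes by limma.

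In each of the other classes at most 1 GC tumor held 10 cells. These classes were not tested, and pooled levels are given with exact 95% Poisson intervals that cover counting error only. In eosinophils, Nr4a1 was 13.0 to 22.0 in control tumors and 0.113, 8.25 and 4.30 in GC replicates 2, 3 and 5, which held 10, 9 and 8 cells. Every GC value was below every control value. Pooled, this was 15.6 UMIs per 10000 (14.5 to 16.8) in 478 control eosinophils and 2.00 (0.863 to 3.94) in 32 GC eosinophils. Pooled Junb was 79.3 (76.8 to 82.0) and 39.2 (33.3 to 45.8), but GC replicate 3 at 74.8 lay inside the control range of 67.3 to 91.3. Pooled Jund was 43.6 and 42.7, with intervals that overlapped, while the per-tumor values of 70.4, 47.9 and 50.9 after GC all lay above the control range of 41.7 to 46.6. Per-tumor levels weight each cell equally and pooled levels weight cells by their UMIs, and the pooled 32 cells include those of GC tumors with under 5 eosinophils. Median depth was 873.5 UMIs per eosinophil in control and 721 in GC tumors.

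In Tregs, where GC tumors held 1 to 5 cells each, pooled Junb had an interval of 17.5 to 18.4 in control and a level of 6.91 (5.54 to 8.53) after GC. Pooled Nr4a1 was 5.96 (5.70 to 6.23) and 2.07 (1.35 to 3.03), from 26 UMIs in 14 cells. Fos in pooled monocytes was 11.0 (10.8 to 11.3) and 19.0 (17.6 to 20.6). The per-tumor Fos values of GC replicates 2 and 3 were 14.4 and 24.3 against 8.55 to 14.5 in control monocytes, so replicate 2 lay inside the control range. In control tumors Fos was 9.05 in Monocytes 1, 15.3 in Monocytes 2 and 7.46 in Monocytes 3. The monocyte levels were not standardised for the mix of these clusters, and the part of that mix was not tested. In the DC 2 cluster Egr1 had 0 UMIs in 9 GC cells, which by counting error alone allows up to 0.208 per 10000, against 1.81 in control cells. Control tumors ran from 0.238 to 2.86, and only 29 of 95 control cells held a UMI of Egr1, so that limit is too narrow.

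The other genes of the pathway moved in both directions. Among 23 other immediate early genes tested in neutrophils, 3 rose and 3 fell, with a list median of -0.23 against 0.034 for all genes. Of all genes there, 4.83% were called in either direction and 2.74% lower. Dusp5, a nuclear phosphatase of ERK, fell by 2.04 (SE 0.28), and Btg1, an antiproliferative gene, fell by 0.84. Zfp36l2, an RNA-binding protein that destabilizes AU-rich transcripts, rose by 1.63 ± 0.30 and Rgs1, a regulator of G protein signaling, by 2.10 ± 0.52. In TAMs 4 of 23 rose and 3 fell, against 6.86% of all genes called higher and 14.3% lower. Dusp1, the phosphatase of p38 and JNK and a classical GC-induced gene, went there from 10.4 ± 1.29 to 27.8 ± 1.07 UMIs per 10000. Rgs1 rose by 1.05 ± 0.12, Egr2 was at -1.81 ± 0.21 and Rgs2 at -0.51 ± 0.12 (limma). In CD8 T cells, of 21 tested, 3 rose, Zfp36l2, Dusp2 and Dusp1, and Ier3 fell (background 2.27% higher and 5.02% in either direction).

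Of the other basic leucine zipper partners, Jdp2, which pairs with Jun proteins and represses AP-1 targets, rose in neutrophils from 5.01 ± 1.46 to 12.1 ± 0.442 UMIs per 10000 (SD, adjusted p = 0.00836, limma). In TAMs it rose from 0.524 ± 0.155 to 2.16 ± 0.0410 (adjusted p = 0.000321, limma). Over all CD45+ cells Jdp2 was the 1 called gene of 18 tested in that list (background 3.53%). Atf7 rose in neutrophils as well, by 2.85 ± 0.62. In CD8 T cells the called partner was Maff, at 1.44 ± 0.34, of 14 tested (background 5.02%). Of 17 tested in TAMs, Maf and Bach2 fell (background 14.3%), and Atf6 rose as well as Jdp2 (background 6.86%).

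In the MAP kinase and SRF list, Dusp16 rose in neutrophils and in TAMs, and in TAMs 4 of 22 fell, among them Mef2c, Mapk8 and Mapkapk2. That count is close to the 14.3% of all genes called lower in TAMs. Of the inflammatory genes with AP-1 sites in textbook accounts, Il1b and Spp1 fell in neutrophils, by 0.76 and 3.43. In TAMs 3 of 12 fell, among them Mmp12 and Mmp13 (background 14.3%), and Plaur and Cxcl10 rose (background 6.86%). Over all CD45+ cells 0 of 15 inflammatory genes passed, with a list median of -0.95 against -0.093 for all genes. Dusp6, a phosphatase of ERK and itself a marker of its activity, fell by 0.91 over all CD45+ cells. It was the 1 called gene of 26 tested in the MAP kinase and SRF list, close to the background of 3.53%. ERK activity was not tested.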

How the data were processed

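Single cell 3' libraries of 4108 CD45+ cells from 5 control and 5 GC tumors were analysed. The authors aligned reads with Cell Ranger 7.1.0 to mm10 with introns included, assigned hashtags in Seurat 5.0.3 (R 4.3.1), kept singlets and removed outlier cells. What the authors deposited for expression is the natural log of 1 plus UMIs per 10000. The deposited cell table gives each cell's UMI count, gene count, hashtag count, mitochondrial percent and cluster name. No doublet caller was run here. Whole UMIs were recovered for 100% of values (tolerance 0.01), summing to the listed total in 4108 of 4108 cells.

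Tumors, read from the hashtag, were the replicates. Their numbers are only names. Per tumor, log2(mean UMIs per 10000 + 0.1) was compared in CD8 T cells (clusters CD8 1, 2 and 3), neutrophils and TAMs, in tumors with at least 10 cells, for genes with a mean of at least 0.2. Such changes understate those of low genes. Over all, lymphoid or myeloid cells, log2 of observed over expected UMIs was compared, with 0.5 added to both and expected UMIs taken from control levels of each cluster (other control tumors for a control tumor, tumors with at least 5 cells of a lineage). limma 3.58.1 (R 4.3.3, trended, robust) gave p-values adjusted by Benjamini-Hochberg over all genes tested, with a threshold of 0.05. Alternatives on summed UMIs used edgeR 4.0.16 (quasi-likelihood test) and DESeq2 1.42.0. In simulated data for all CD45+ cells (6512 genes), limma recovered 57% of 2-fold and 98% of 4-fold changes, and edgeR 97% and 100%. For 2-fold changes limma recovered 37% in lymphoid (6311 genes) and 32% in myeloid cells (6078 genes), and edgeR 75% and 68%.

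The 10 members and the 6 gene lists were chosen with earlier results of these data known. Named were all members, up to 4 called genes per list by smallest adjusted p, and the 5 genes most like the summed members over clusters. Promoters came from RefSeq and coordinates from GRCm38.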

Additional observations from a re-analysis of the deposited data

Results flagged for a closer look

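Of 50 groups of tumors checked for a single distant tumor, 3 were marked, and chance marks about 1 in 20. Junb in CD8 T cells was 11.6 UMIs per 10000 in control replicate 4, against 18.4 to 21.1 in the other control tumors. Jund in CD8 T cells was 8.56 in control replicate 1, against 9.01 to 9.20 in the others, a small gap in absolute terms. For Jund over all CD45+ cells, observed over expected UMIs were 0.539 in GC replicate 1, which held 18 cells, against 0.899 to 0.996 in the other GC tumors.

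The change of Nr4a1 differed between neutrophils and TAMs by -2.05 on the log2 scale, by a limma test of the difference within tumors (adjusted p = 0.0259, 5 control and 2 GC tumors).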

How the results depend on the processing

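In neutrophils, Nr4a1 and Junb passed in all 15 alternatives, Fosb in 13 and Atf3 in 9. The count of members called was 2 with tumors of at least 5 cells, and 2 to 4 when 1 tumor was left out. In TAMs, Egr1 passed in all 15 and Jund in 14. The count was 1 with cells thinned to 2000 UMIs and 2 to 4 when 1 tumor was left out, and Junb, not called, ran from -1.12 (called, without GC replicate 3) to 0.073 (without GC replicate 2). In CD8 T cells the count was 0 with a filter of 0.05, 2 with tumors of at least 20 cells, 0 in cluster CD8 1 alone, 0 in CD8 2 alone, and 0 to 2 when 1 tumor was left out. Fos, not called, was -1.05 without GC replicate 2 (called), 0.22 and 0.022 without GC replicates 3 and 5, and -1.52 in cluster CD8 1 alone (adjusted p = 0.150, limma). Over all CD45+ cells the count was 1 (Junb) by edgeR, by DESeq2, with a mean of at least 1, and without GC tumors under 30 cells. It was 1 by edgeR in lymphoid and 1 in myeloid cells. Between neutrophils and TAMs it was 0 to 1 when 1 tumor was left out. The cause of these moves was not tested. A setting of 20 cells could not be fitted in neutrophils or TAMs, since no GC tumor held them. Thinning within a class, single CD8 clusters and the neutrophil to TAM difference were chosen after the data were examined. Control and GC tumors were separate treatment groups, so there were no pairs to analyse. With 1 of the 2 GC tumors of neutrophils or TAMs left out, the other is alone in its arm and is assumed to vary like the controls, so these fits say little of stability. What size of change the class comparisons could detect was not simulated.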
